A study of Mus musculus with 124 samples.

Results

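DNA methylation (DNAm) was described across Fgf14 and Zbtb20, the genes in which the MAPT transgene of rTg4510 mice and the APP transgene of J20 mice, respectively, are reported to have inserted. The CpGs were chosen by position alone, as every CpG measured from 10 kb upstream to 10 kb past the end of either gene in GENCODE vM21 (GRCm38), which gave 286 of the 1678088 CpGs measured in the series. Of these, 80 CpGs of Fgf14 were measured in rTg4510 mice and 81 in J20 mice, with 73 in both. For Zbtb20, 185 CpGs were measured in rTg4510 mice and 190 in J20 mice, with 177 in both. No CpG of either gene differed between transgenic (TG) and wild-type (WT) mice after adjustment in either model, except that 2 Fgf14 and 8 Zbtb20 CpGs were called in rTg4510 mice when the letter of the sample title was added as a block. With the block, 17489 of all 1558278 CpGs were called in rTg4510 mice, against 4893 of 1558474 without it. The study reports a genotype difference at an array position of each gene (Fgf14 in rTg4510, Zbtb20 in J20 mice) that was not measured here. Its top-ranked J20 genotype difference was in Zbtb20, and its Fgf14 site also differed in the hippocampus. The study further reports that Fgf14 expression differed between WT and TG rTg4510 mice. Among the 3 regions of each gene and model with the smallest p, the largest differences with an unadjusted permutation p below 0.05 were in 3 intronic regions toward the 3′ end of Zbtb20. The regions at 662 and 706 kb from its 5′ end differed in rTg4510 mice, where Zbtb20 has no reported insertion, and that at 683 kb in J20 mice.

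Each sample was the entorhinal cortex of 1 female mouse, profiled by reduced representation bisulfite sequencing (RRBS), which cuts the genome at CCGG and reads the fragments rich in CpGs. The rTg4510 mice carry a human mutant MAPT transgene together with a CaMKIIα-tTA transgene, in which the CaMKIIα promoter restricts the transactivator, and so tau, largely to forebrain excitatory neurons. There were 31 WT and 30 TG rTg4510 mice aged 2, 4, 6 and 8 months. The J20 mice carry a human mutant APP transgene driven by the PDGF-β promoter, and there were 32 WT and 31 TG mice aged 6, 8, 10 and 12 months. Each combination of genotype and age held 7 or 8 mice, and the WT mice were littermates. Whether WT rTg4510 mice carried the tTA transgene alone is not given in the sources used here. Bulk tissue was measured, so a shift in the mix of cell types and a shift of DNAm within cells cannot be told apart, and the tissue could not be checked by marker genes because expression was not analysed here. The number of reads behind each value is unknown. As a check of the genotype labels, 22 of 38 CpGs of Prnp, a gene whose sequence the tau transgene carries, were called between TG and WT rTg4510 mice, and 0 of 202 CpGs of Mapt, the mouse form of the transgene, where 0.314% of all CpGs were called. The J20 labels had no such check, since 0 of 202 CpGs of App were called in J20 mice and 1 of 676 over Mapt, App, Prnp and Pdgfb, where 0.18% of all CpGs were called. The tables of both models were made separately, so levels are given side by side and only the TG minus WT differences were tested between models.

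FGF14 is an intracellular member of the fibroblast growth factor family that is not secreted but binds the α subunits of voltage-gated sodium channels and sets their gating and their place at the axon initial segment. ZBTB20 is a transcriptional repressor with a BTB domain and zinc fingers that is needed for the development of hippocampal CA1 neurons and is also expressed in astrocytes. In mammalian brain, CpGs close to active transcription starts are usually unmethylated, whereas CpGs within gene bodies are usually methylated. A DNA insertion can in principle be seen by RRBS as a changed level, or as a missing value, at the CpGs around it.

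Fgf14 (ENSMUSG00000025551.13) lies on the minus strand of chromosome 14 (chr14:123977907-124677127) and has 2 annotated transcripts, both coding. Fgf14-202 starts at the 5′ end of the gene, and Fgf14-201 starts further downstream at 124192902. Zbtb20 (ENSMUSG00000022708.16) lies on the plus strand of chromosome 16 (chr16:42875881-43642602) and has 21 annotated transcripts with 19 distinct starts. Of the 7 stretches printed here, 4 hold the CpG with the smallest p of the genotype test for 1 gene in 1 model, and 3 hold further Zbtb20 CpGs from the 3 regions with the smallest p in a model. Each is read 5′ to 3′ on the strand of the gene in GRCm38 (reference genome sequence from RefSeq), and capitals mark the CpGs with a value. The first Fgf14 stretch (chr14:124676316-124676483, minus strand) is in the first intron of Fgf14-202, and the second (chr14:123987057-123987118, minus strand) is in an intron near the 3′ end of the gene. The first Zbtb20 stretch (chr16:42875973-42876154, plus strand) directly follows the most 5′ start of the gene, and the second (chr16:43247534-43247595, plus strand) is in the first intron of Zbtb20-201. The other 3 (chr16:43537942-43538033, chr16:43558606-43558691 and chr16:43581885-43581946, all plus strand) are in introns toward the 3′ end.
Fgf14 first intron: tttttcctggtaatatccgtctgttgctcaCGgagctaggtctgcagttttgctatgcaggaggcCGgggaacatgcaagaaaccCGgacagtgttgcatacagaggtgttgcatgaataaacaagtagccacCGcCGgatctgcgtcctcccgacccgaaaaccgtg
Fgf14 3′ intron: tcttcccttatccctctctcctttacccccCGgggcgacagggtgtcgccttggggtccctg
Zbtb20 5′ start: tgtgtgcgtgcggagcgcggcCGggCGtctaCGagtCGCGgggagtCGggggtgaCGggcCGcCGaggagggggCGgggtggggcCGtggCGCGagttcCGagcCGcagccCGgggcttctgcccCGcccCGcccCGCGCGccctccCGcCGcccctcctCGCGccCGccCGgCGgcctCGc
Zbtb20-201 first intron: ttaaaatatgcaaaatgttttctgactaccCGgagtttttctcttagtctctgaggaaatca
Zbtb20 intron at 662 kb: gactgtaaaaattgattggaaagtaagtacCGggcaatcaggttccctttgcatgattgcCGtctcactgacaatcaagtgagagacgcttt
Zbtb20 intron at 683 kb: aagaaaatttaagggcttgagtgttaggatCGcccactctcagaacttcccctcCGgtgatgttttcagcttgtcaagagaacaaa
Zbtb20 intron at 706 kb: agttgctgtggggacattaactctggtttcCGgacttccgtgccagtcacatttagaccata
The Zbtb20 start is the densest of these, with 33 CpGs in 182 bases, 29 of them with a value in rTg4510 mice, and a GC content of 83.5%. The 4 intronic Zbtb20 stretches hold only 1 to 3 CpGs each.

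The measured CpGs are a small share of each gene. The window around Fgf14 spans 719 kb and holds 3160 CpGs, of which 2.53% were measured in rTg4510 mice and 2.56% in J20 mice. The window around Zbtb20 spans 787 kb and holds 5433 CpGs, of which 3.41% and 3.497% were measured, respectively. With sites at most 100 bp apart joined, the Fgf14 CpGs fell into 32 regions (rTg4510) and 34 regions (J20), and those of Zbtb20 into 51 and 50 regions. The authors smoothed the levels along neighbouring CpGs, so CpGs of 1 region are not independent measurements, and long stretches of both genes had no value.

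DNAm was low in both models at the Fgf14 starts and at the most 5′ Zbtb20 start, but not at all measured Zbtb20 starts. The 17 CpGs within 1500 bp of the Fgf14-201 start had a median level of 1.47% in rTg4510 mice and 0.993% in J20 mice. The 10 CpGs at the Fgf14-202 start were a little higher, at 5.57% and 4.60%. Outside the start regions, the Fgf14 introns had a high median, at 90.2% over 53 CpGs in rTg4510 mice and 89.2% over 54 CpGs in J20 mice. Single intronic CpGs ranged from 1.08% to 99.3% and from 1.51% to 99.0%, respectively. At Zbtb20, the 82 and 86 CpGs around the most 5′ start (transcript Zbtb20-209) had medians of 1.23% and 0.945%. That transcript is annotated as a retained intron and not as coding. The most 5′ coding starts (Zbtb20-217 at 42907645 and Zbtb20-204 at 42907652) had no measured CpG within 1500 bp. The start of Zbtb20-201, a coding transcript, was not unmethylated: its 3 CpGs ranged from 54.2% to 77.3% in rTg4510 mice and from 42.9% to 70.5% in J20 mice. The start of Zbtb20-208 had a median of 33.9% over 2 CpGs in rTg4510 mice and 20.7% over 3 CpGs in J20 mice. The Zbtb20 introns had medians of 63.9% over 63 CpGs and 69.9% over 61 CpGs, below those of Fgf14. Single CpGs there ranged from 3.67% to 98.0% in rTg4510 mice and from 3.34% to 97.6% in J20 mice. The Zbtb20 exons had medians of 83.0% over 32 CpGs and 79.7% over 34 CpGs, with ranges of 10.7% to 96.6% and 5.54% to 96.9%. In the RefSeq promoter of each gene (300 bases around 1 start), Fgf14 has 12 CpGs and Zbtb20, at the methylated Zbtb20-201 start, has 3, against a median of 7 over 32851 mouse promoters.

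**Figure D1:**
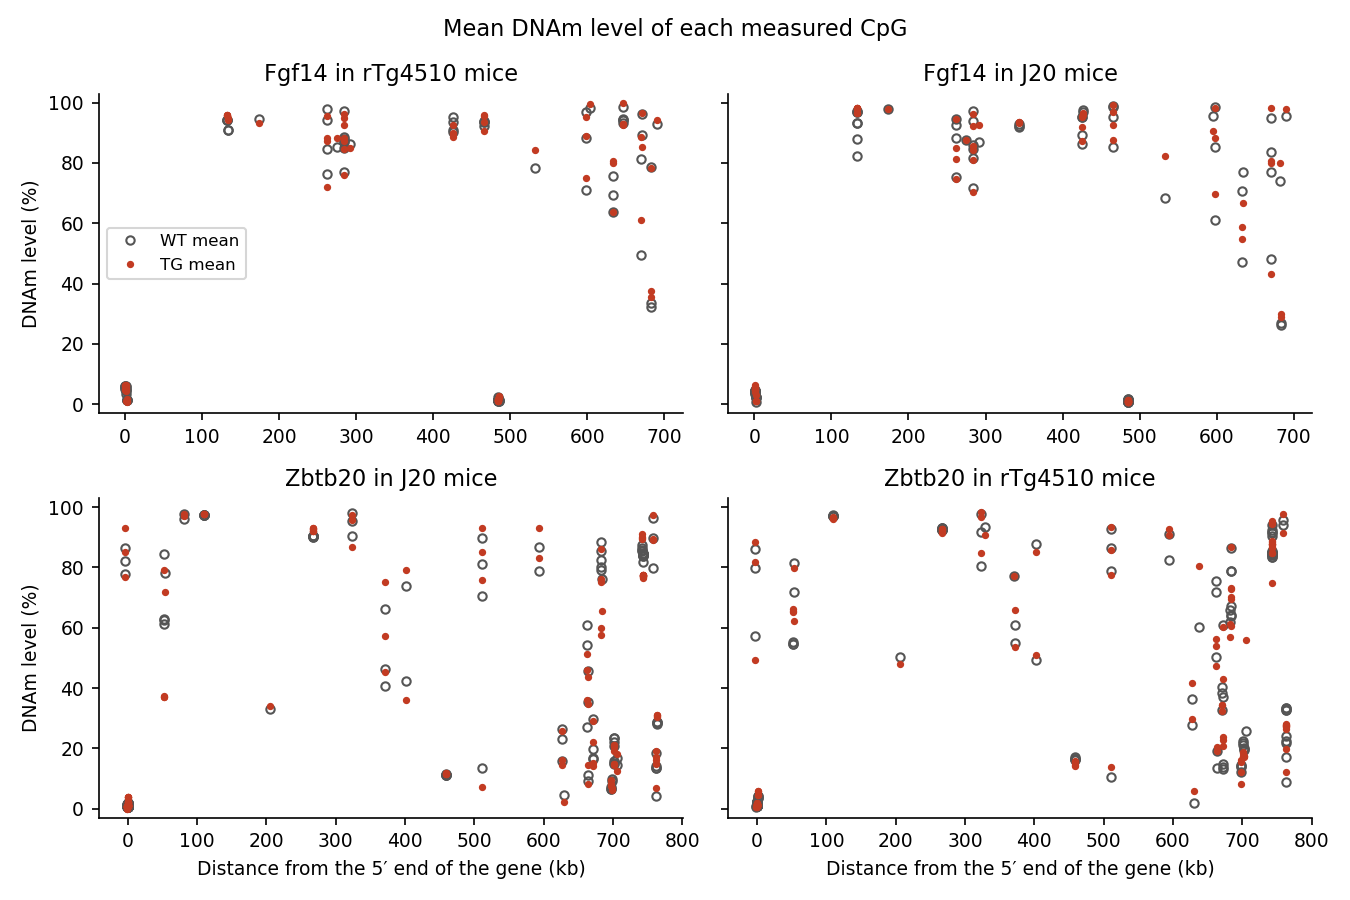
Mean DNAm level (%) of each measured CpG against its distance in kb from the 5′ end of the gene, with WT means as open circles and TG means as filled points, for each gene and model. Levels are near 0 at the starts (0 kb in both genes and about 485 kb in Fgf14), and the WT and TG means lie furthest apart in Zbtb20, between 600 and 710 kb in rTg4510 mice and near 50 and 683 kb in J20 mice.

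Averaged over the CpGs with a value in every mouse, the TG and WT mice overlapped throughout. Outside the start regions of Fgf14, the mean level per mouse was 78.5% ± 4.56 (SD, n = 31) in WT mice against 80.2% ± 3.19 (SD, n = 30) in TG rTg4510 mice over 16 CpGs. In J20 mice the same mean was 82.9% ± 3.92 (SD, n = 32) in WT mice against 82.8% ± 3.68 (SD, n = 31) in TG mice over 22 CpGs. Outside the start regions of Zbtb20, WT and TG J20 mice had 55.6% ± 2.73 (SD, n = 32) and 55.7% ± 3.17 (SD, n = 31) over 52 CpGs. The rTg4510 mice had 57.9% ± 5.08 (SD, n = 31) and 58.1% ± 3.97 (SD, n = 30) over 42 CpGs. In all 4 cases the means lay within 1 SD of each other.

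The genotype test was a beta regression of the level at each CpG on genotype, age and their interaction, with Benjamini-Hochberg adjustment of the p-values across all CpGs of the model and a call at an adjusted p below 0.05. In rTg4510 mice, this called 0 of 80 Fgf14 CpGs and 0 of 185 Zbtb20 CpGs, where 0.314% of all CpGs were called. In J20 mice it called 0 of 81 and 0 of 190, where 0.18% of all CpGs were called. With limma on the same levels, 0 CpGs of either gene were called in either model. At an unadjusted p below 0.05, the beta regression gave 7 of 80 Fgf14 CpGs in rTg4510 mice, against 10.1% of all CpGs, and 0 of 81 in J20 mice, against 9.35% of all CpGs. For Zbtb20 it gave 26 of 185 CpGs in rTg4510 mice (14.1%) and 9 of 190 in J20 mice (4.74%). limma gave 2 and 3 CpGs of Fgf14 and 18 and 7 CpGs of Zbtb20, in rTg4510 and J20 mice respectively, against 5.26% and 5.03% of all CpGs. How each gene stood against all CpGs depended on the setting. With the genotype effect taken at an age of 0 months instead of the mean age, 22 of 80 Fgf14 and 20 of 185 Zbtb20 CpGs in rTg4510 mice were below the unadjusted threshold, against 9.01% of all CpGs, and 7 of 81 and 27 of 190 in J20 mice, against 9.66%. With the title letter as a block, these counts were 8 of 80 and 29 of 185 in rTg4510 mice, against 13.1% of all CpGs, and 1 of 81 and 30 of 190 in J20 mice, against 11.4%. The block called 2 Fgf14 and 8 Zbtb20 CpGs in rTg4510 mice and 0 CpGs in J20 mice. Over all CpGs it called 17489 of 1558278 in rTg4510 mice and 7940 of 1581990 in J20 mice. Without the block and at the mean age, 17 of the 26 Zbtb20 CpGs in rTg4510 mice lay in 1 smoothed run at the 5′ start.

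The sizes of the differences were small at most sites. The median TG minus WT difference over the Fgf14 CpGs was 0.162 percentage points (rTg4510) and 0.104 points (J20), and over the Zbtb20 CpGs −0.119 and 0.122, while over all CpGs it was 0.0959 and 0.0727. A difference of over 10 points was seen at 2 Fgf14 CpGs in rTg4510 mice (2.50%) and 5 in J20 mice (6.17%). It was seen at 9 Zbtb20 CpGs in each model (4.86% in rTg4510 and 4.74% in J20 mice). Over all CpGs these shares were 3.08% and 2.99%. The 95% interval of the difference (limma) lay wholly within 10 points of 0 at 62 of 80 and 60 of 81 Fgf14 CpGs and at 122 of 185 and 127 of 190 Zbtb20 CpGs, in rTg4510 and J20 mice respectively. At the other sites the interval reached past 10 points in at least 1 direction.

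**Figure D2:**
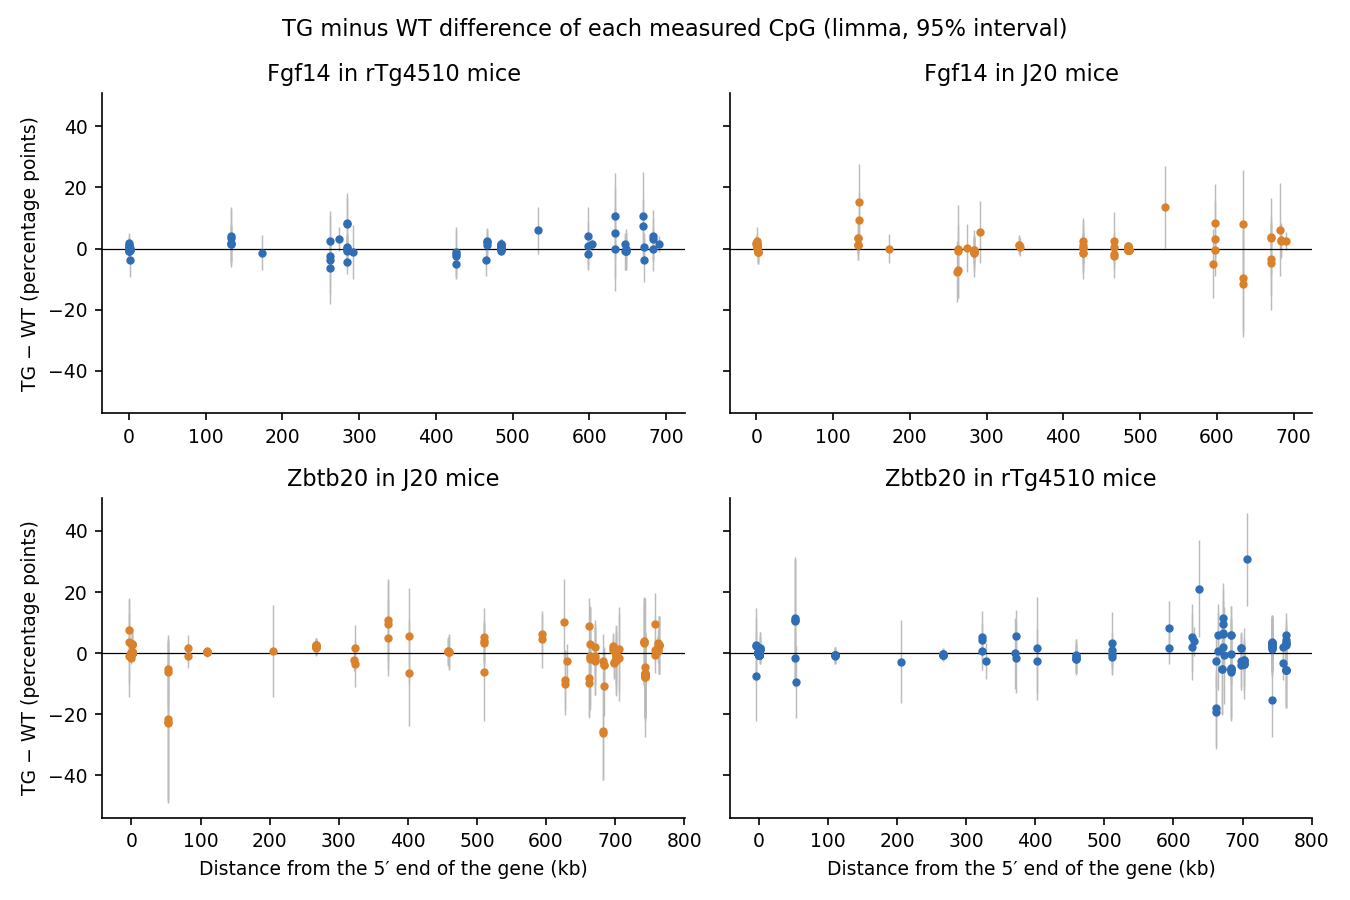
TG minus WT difference in DNAm (percentage points) of each measured CpG against its distance in kb from the 5′ end of the gene, with 95% intervals from limma as vertical lines. The points at the Fgf14 starts and at the most 5′ Zbtb20 start lie close to 0, and those furthest from 0 are in Zbtb20, near −25 points at about 50 and 683 kb in J20 mice and from about −19 to 30 points between about 600 and 710 kb in rTg4510 mice.

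In Fgf14 of rTg4510 mice, the reported insertion gene of MAPT, the 7 CpGs below the unadjusted threshold all had a negative genotype coefficient, and 6 of them were at the Fgf14-202 start. The site with the smallest p, chr14:124676349 in the first intron (the first stretch printed above), ranged from 0 to 28.2% in WT mice (median 4.40%) and from 0 to 28.1% in TG mice (median 1.91%). The means were 5.85% ± 6.02 (SD, n = 31) and 5.30% ± 6.79 (SD, n = 30), and the groups overlapped over nearly their whole range. The beta regression gave an adjusted p of 0.171, and a two-sided permutation test of the difference in means, with genotype permuted within age, gave p = 0.742. At chr14:124677036, in the first exon of Fgf14-202, the means were 5.22% ± 4.48 (SD, n = 31) and 4.75% ± 9.72 (SD, n = 29), with an adjusted p of 0.278 from the beta regression (0.00788 with the letter block). The number of mice listed at exactly 0 also differed at these sites. At 124677036 it was 13 of 29 TG and 5 of 31 WT mice, and at 124676349 it was 8 of 30 TG and 2 of 31 WT mice. At chr14:124676397 the coefficient was negative, with an unadjusted p of 0.0049 from the beta regression, although the mean was higher in TG mice, at 6.36% ± 7.78 (SD, n = 30) against 4.98% ± 3.39 (SD, n = 31). Here 8 TG mice and 1 WT mouse were at 0, while 1 TG mouse reached 33.2%. With values squeezed away from 0 and 1 before the fit, 0 of the 80 Fgf14 CpGs had an unadjusted p below 0.05, and the share over all CpGs was 5.16%, against 10.1% without squeezing.

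The intronic Fgf14 sites of rTg4510 mice gave larger but not separable differences. At chr14:124006642 the means were 89.2% ± 13.9 (SD, n = 31) in WT mice against 85.2% ± 14.5 (SD, n = 30) in TG mice, with an adjusted p of 0.447 from the beta regression. The 2 sites that differed by over 10 points were higher in TG mice. At chr14:124006792 the means were 49.6% ± 32.2 (SD, n = 31) and 60.9% ± 24.3 (SD, n = 30), with a permutation p of 0.127. At chr14:124043418 they were 69.2% ± 30.6 (SD, n = 30) and 80.0% ± 21.8 (SD, n = 29), with a permutation p of 0.135. In both groups these sites spanned nearly the whole scale, from 0 to 100% at 124006792.

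In J20 mice, where Fgf14 carries no reported insertion, the smallest adjusted p of the beta regression over the 81 CpGs was 0.640. It was at chr14:123987087 (the second stretch printed above), where the lowest, median and highest levels were 69.4%, 97.7% and 100% in WT mice and 82.3%, 100% and 100% in TG mice. The means were 95.4% ± 6.93 (SD, n = 32) and 97.9% ± 4.22 (SD, n = 31), with 14 WT and 22 TG mice at 100%. The largest Fgf14 difference in these mice was at chr14:124543717, with 82.4% ± 26.7 (SD, n = 16) in WT mice against 98.0% ± 5.54 (SD, n = 21) in TG mice. Its permutation p was 0.0167, or 0.0526 when the 4 within-age differences were averaged, and 16 WT and 10 TG mice had no value there. At chr14:124043418, where TG rTg4510 mice had the higher mean, TG J20 mice had the lower one, at 66.8% ± 37.4 (SD, n = 28) against 76.9% ± 27.1 (SD, n = 29). The difference between the models was 20.9 points, with a permutation p of 0.0656.

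In Zbtb20 of J20 mice, the reported insertion gene of APP, 6 of the 9 CpGs below the unadjusted threshold had a positive and 3 a negative coefficient. The smallest adjusted p of the beta regression, 0.374, was at chr16:43247564, 280 bp past the start of Zbtb20-201. Its levels were 46.4% ± 29.6 (SD, n = 32) in WT mice against 57.1% ± 23.03 (SD, n = 31) in TG mice. WT mice ranged from 0 to 100% and TG mice from 25 to 100%, and the permutation p was 0.115. In rTg4510 mice the same site had 60.8% ± 19.9 (SD, n = 31) and 66.0% ± 13.0 (SD, n = 30).

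The region at 683 kb (chr16:43558636 and its neighbour 43558660) showed the largest J20 difference with over 20 mice measured in each group. At 43558636 the lowest, median and highest levels were 24.7%, 92.7% and 100% in WT mice and 0, 62.7% and 100% in TG mice. Of the WT mice, 13 were at 100% and 0 at 0, whereas 9 TG mice were at 100% and 5 at 0. The means were 85.4% ± 21 (SD, n = 29) and 59.98% ± 35.9 (SD, n = 30), a difference of −25.4 points with a permutation p of 0.00201. The adjusted p of the beta regression was 0.440, so the site was not called over all CpGs. This site is the measured CpG nearest to the Zbtb20 position that the study lists, at 1001 bp. The TG mean was the lower one at each age, with TG means of 57.9%, 76.6%, 43.9% and 63.3% at 6, 8, 10 and 12 months and WT means of 93.7%, 90.2%, 85.5% and 74.8%. The groups overlapped at every age. In rTg4510 mice this site differed by only −4.45 points (65.8% ± 32.1, SD, n = 27, in WT mice against 61.4% ± 29.4, SD, n = 30, in TG mice). The difference between the models, 20.9 points, had a permutation p of 0.0742. A larger J20 difference, −26.0 points at chr16:42928337, rested on 22 WT and 18 TG mice (63.1% ± 36.2 and 37.1% ± 44.1, SD) and had an unadjusted p of 0.106 from the beta regression.

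In Zbtb20 of rTg4510 mice, which serve as the control for the J20 insertion, 23 of the 26 CpGs below the unadjusted threshold had a negative coefficient. The smallest adjusted p, 0.0555 by the beta regression and 0.0372 with the letter block, was at chr16:43538002 in the intron at 662 kb. The lowest, median and highest levels there were 29.2%, 75.1% and 100% in WT mice and 15.4%, 55.9% and 100% in TG mice, so that the groups overlapped and 9 WT but only 2 TG mice were at 100%. Most of these WT mice carried the title letters K or L, which more WT than TG mice carry. The means were 75.4% ± 21.9 (SD, n = 30) and 56.2% ± 25.4 (SD, n = 30), a difference of −19.2 points with a permutation p of 0.00328. The TG mean was lower at each age, by the least at 4 months (61.9% against 66.6%) and by the most at 8 months (49.0% against 85.5%). J20 mice differed the same way at this site, with 60.9% ± 25.2 (SD, n = 32) in WT mice against 51.3% ± 20.3 (SD, n = 31) in TG mice, a permutation p of 0.108. The difference between the models was −9.55 points with a permutation p of 0.290.

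At chr16:43581915, in the intron at 706 kb, the difference had the opposite sign. The lowest, median and highest levels were 0, 26.7% and 100% in WT rTg4510 mice and 0, 54.8% and 100% in TG mice. Of the WT mice, 9 were at 0 and 1 at 100%, against 3 and 6 TG mice. The means were 25.9% ± 25.8 (SD, n = 29) and 55.9% ± 32.3 (SD, n = 27), a difference of 29.99 points, with an adjusted p of 0.0769 from the beta regression (0.0208 with the letter block) and a permutation p of 0.00036. The means of WT and TG mice were 34.0% and 41.3% at 2 months, 16.0% and 50.5% at 4 months, 21.8% and 70.6% at 6 months, and 32.5% and 67.5% at 8 months. The interaction with age was not called (adjusted p of 0.821 from the beta regression). In J20 mice the site was low in both groups, at 16.7% ± 23.99 (SD, n = 29) and 18.2% ± 26.6 (SD, n = 26), with a permutation p of 0.834. The difference between the models was 28.5 points with a permutation p of 0.00913, and an adjusted p of 0.241 over all CpGs measured in both models. In the 3′ exon, chr16:43618945 had 90.5% ± 14.8 (SD, n = 24) in WT mice against 74.9% ± 25.5 (SD, n = 30) in TG rTg4510 mice, with a permutation p of 0.00743 and an adjusted p of 0.326 from the beta regression. The intronic chr16:43513082 differed by 20.2 points, with 60.3% ± 39.2 (SD, n = 31) in WT mice against 80.5% ± 22.9 (SD, n = 30) in TG mice (limma 95% interval of the difference 5.23 to 37.1 points), and it had no value in J20 mice. It was named after its values were seen and had no permutation test, and its unadjusted and adjusted p were 0.1004 and 0.623 by the beta regression and 0.0101 and 0.854 by limma. At 4 more intronic CpGs, 3 from 42928300 to 42928337 and 1 at 43548085, TG rTg4510 mice were higher by 10.1 to 11.4 points, with 0 unadjusted p-values below 0.05 by the beta regression and 1 by limma (0.0448, at 43548085).

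**Figure D3:**
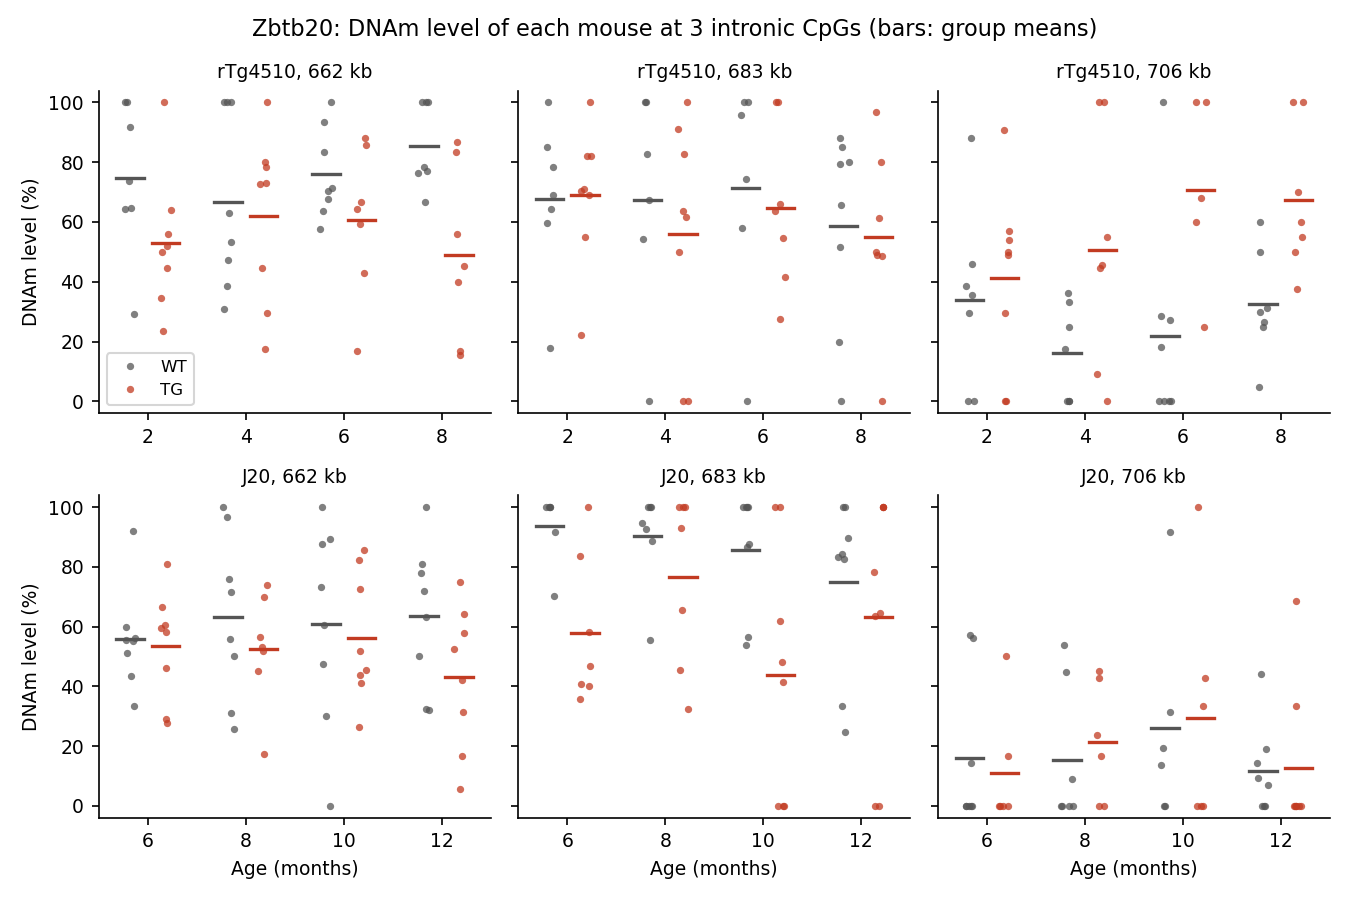
DNAm level (%) of each mouse at 3 intronic CpGs of Zbtb20 (662, 683 and 706 kb from the 5′ end) against age in months, with WT mice in grey, TG mice in red and bars at the group means, for rTg4510 mice above and J20 mice below. Single mice spread over most of the scale in each panel, the TG bars lie below the WT bars at every age for J20 at 683 kb and rTg4510 at 662 kb, and above them for rTg4510 at 706 kb.

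The CpG-dense run at the 5′ start of Zbtb20 (chr16:42875994-42876425) was nearly unmethylated in all mice, and its small differences had opposite signs in the models. In rTg4510 mice 46 of its 50 CpGs were lower in TG mice, with differences from −0.630 to 0.667 points and 17 unadjusted p-values below 0.05. In J20 mice 50 of its 54 CpGs were higher in TG mice, with differences from −0.0530 to 0.360 points and 5 unadjusted p-values below 0.05. Because the levels were smoothed along this run, these counts do not stand for separate measurements. At chr16:42876063 the lowest, median and highest levels were 0.103%, 1.25% and 4.69% in WT rTg4510 mice and 0, 0.755% and 2.25% in TG mice. The means were 1.43% ± 1.08 (SD, n = 31) and 0.874% ± 0.642 (SD, n = 30), with an adjusted p of 0.104 from the beta regression (0.0293 with the letter block) and a permutation p of 0.0163. The TG mean was lower at 2, 4 and 6 months (0.876% against 1.82% at 2 months) and higher at 8 months (1.14% against 0.657%). In J20 mice the means were 0.953% ± 0.834 (SD, n = 32) and 1.10% ± 0.763 (SD, n = 31). The difference between the models was −0.709 points (permutation p = 0.0226), and at its neighbour 42876084 it was −0.696 points (permutation p = 0.00792). Averaged over the 76 and 80 start CpGs with a value in every mouse, the per-mouse level was 1.38% ± 0.689 (SD, n = 31) in WT mice against 1.20% ± 0.559 (SD, n = 30) in TG rTg4510 mice. The WT and TG J20 mice had 1.01% ± 0.366 (SD, n = 32) and 1.04% ± 0.340 (SD, n = 31), respectively.

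**Figure D4:**
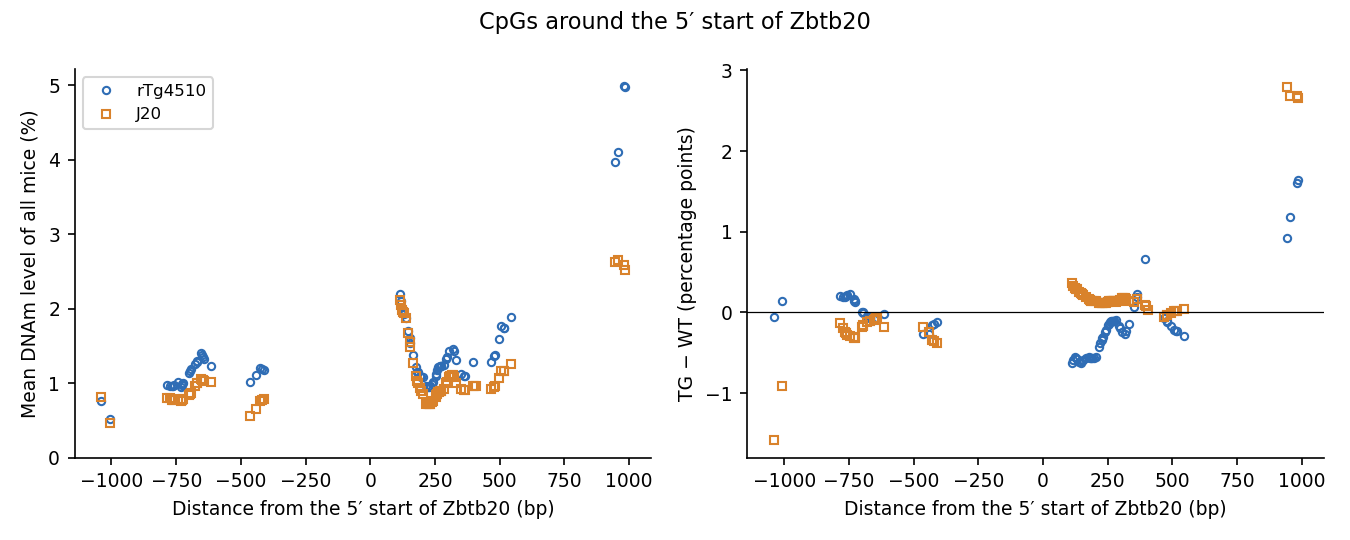
CpGs around the 5′ start of Zbtb20 in rTg4510 (circles) and J20 mice (squares), with the mean DNAm level of all mice (%) on the left and the TG minus WT difference (percentage points) on the right, against the distance from the start in bp. Levels stay below 5% and change smoothly from CpG to CpG, and between about 100 and 300 bp the differences are mostly below 0 in rTg4510 and above 0 in J20 mice.

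A direct test of the difference between the genotype coefficients of the models called 0 of 73 Fgf14 CpGs and 0 of 177 Zbtb20 CpGs, where 0.112% of all CpGs were called. At an unadjusted p below 0.05 it gave 4 Fgf14 CpGs and 36 Zbtb20 CpGs (20.3%), against 9.16% of all CpGs. Each CpG of a smoothed run, such as that at the 5′ start of Zbtb20, is counted singly, so these counts do not stand for separate measurements. The same test on the limma coefficients also called 0 CpGs and gave 0 and 19 at an unadjusted p below 0.05, against 4.60% of all CpGs. The smallest adjusted p by the beta regression was 0.295 in Fgf14 (124677036) and 0.0999 in Zbtb20 (42876084, in the run at the 5′ start). Over the sites named here, 73 permutation tests within a model gave 7 with p below 0.05, and 36 tests between the models gave 3. Since sites were named for small p-values in the same mice, these permutation p-values describe the sites and are not independent support.

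The models also span different ages, and neither gene showed a called change with age, except that 5 Zbtb20 CpGs were called for age in J20 mice with the letter block. With that block, 12735 of all 1581989 CpGs were called for age in J20 mice. The likelihood ratio test of the interaction of genotype with age called 0 CpGs of either gene, where 0.00995% of all CpGs were called in rTg4510 mice and 0.06% in J20 mice. limma likewise called 0. At an unadjusted p below 0.05 it gave 19 of 80 Fgf14 CpGs in rTg4510 mice (23.8%), against 8.54% of all CpGs, and 7 of 81 in J20 mice, against 9.15%. Of these 19 Fgf14 CpGs 15 had a positive coefficient, and limma gave 4 of 80, against 4.41% of all CpGs. Smoothed neighbours are counted singly here too, so the 19 CpGs are not separate measurements. For example, chr14:124192543 at the Fgf14-201 start had 0.613%, 1.24%, 2.42% and 1.22% in TG mice of 2, 4, 6 and 8 months, against 2.38%, 2.21%, 2.33% and 2.34% in WT mice (adjusted p of 0.225 by the beta regression). Of the 8 TG mice of 2 months, 5 were listed at 0. For Zbtb20, the interaction gave 18 of 185 CpGs in rTg4510 and 26 of 190 in J20 mice, and limma gave 14 and 7, against 4.41% and 4.93% of all CpGs. In J20 mice chr16:43638619, in the last exon, had the smallest adjusted p (0.195 by the beta regression). WT mice there had 9.51%, 13.5%, 12.6% and 18.5% at 6, 8, 10 and 12 months, and TG mice 16.3%, 16.1%, 20.9% and 14.7%.

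The test of age itself, with genotype held fixed, also called 0 CpGs of either gene by the beta regression and by limma, where the beta regression called 0.166% of all CpGs in rTg4510 mice and 0.281% in J20 mice. With the letter block the beta regression called 5 Zbtb20 CpGs for age in J20 mice, with a smallest adjusted p of 0.0211. Over all CpGs of J20 mice, the beta regression called 12735 of 1581989 for age with the block and 4443 of 1582070 without it. Without the block, at an unadjusted p below 0.05, it gave 10 Fgf14 and 36 Zbtb20 CpGs in rTg4510 mice, against 9.98% of all CpGs, and 3 and 13 in J20 mice, against 9.87%. limma gave 10 and 6 CpGs in rTg4510 mice, against 5.68% of all CpGs, and 2 and 15 in J20 mice, against 6.19%. The smallest adjusted p, 0.0698 by the beta regression, was at chr16:43547144, an intronic Zbtb20 CpG of J20 mice. WT mice there had 13.7%, 11.4%, 23.3% and 30.9% at 6, 8, 10 and 12 months, and TG mice 14.0%, 14.4%, 36.0% and 22.7%. In Fgf14 the intronic chr14:124006792 of J20 mice had 34.8%, 28.5%, 60.8% and 66.1% in WT and 29.0%, 51.4%, 59.8% and 35.6% in TG mice (adjusted p of 0.243 by the beta regression). The SD within an age was 13.5 to 20.9 points at the first of these sites in TG mice and 21.7 to 40.9 points at the second in WT mice.

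Missing values were tested as a readout of their own, by a two-sided Fisher's exact test of mice with and without a value against genotype. Of the CpGs with at least 1 missing value, 0 of 43 in Fgf14 and 0 of 63 in Zbtb20 were called in rTg4510 mice, and 0 of 32 and 0 of 54 in J20 mice, where 0% of all such CpGs were called in either model. At an unadjusted p below 0.05 there was 1 CpG of each gene in rTg4510 mice, against 0.93% of all CpGs tested, and 0 in J20 mice, against 1.05%. The Fgf14 CpG was chr14:124675609, 1518 bp past the Fgf14-202 start, with no value in 11 of 30 TG mice and 1 of 31 WT mice (unadjusted p = 0.0011 and adjusted p = 1 by Fisher's exact test). Where it had a value, 23 of 30 WT and 17 of 19 TG mice were at 0. In J20 mice 31 mice of each genotype had a value there. The Zbtb20 CpG was chr16:43618945 in the 3′ exon, with no value in 7 of 31 WT and 0 of 30 TG rTg4510 mice (unadjusted p = 0.0107 and adjusted p = 1 by Fisher's exact test). A mouse lacked a value at 2.68 ± 3.34 Fgf14 CpGs (SD, n = 31) in WT mice against 2.57 ± 3.04 (SD, n = 30) in TG rTg4510 mice, and at 3.13 ± 2.64 (SD, n = 32) against 3.06 ± 3.11 (SD, n = 31) in J20 mice. For Zbtb20 it lacked 6.69 ± 6.34 (SD, n = 32) in WT mice against 5.26 ± 4.27 (SD, n = 31) in TG J20 mice, and 5.42 ± 6.58 (SD, n = 31) against 4.27 ± 5.38 (SD, n = 30) in rTg4510 mice. In all 4 cases the means lay within 1 SD of each other. The read depth behind these missing values is unknown.

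Around the genes, few CpGs were called, as over all CpGs, where the share was 0.314% in rTg4510 mice and 0.18% in J20 mice. Within 1 Mb of the ends of Fgf14, the beta regression called 0 of 175 CpGs (rTg4510) and 0 of 189 CpGs (J20), and limma called 0. No CpG was measured from 100 to 1000 kb upstream of Fgf14 in either model, so most of these lie past its 3′ end. An unadjusted p below 0.05 was seen at 11 and 1 of them, respectively, against 10.1% and 9.35% of all CpGs. Within 1 Mb of Zbtb20, the beta regression called 2 of 879 CpGs in J20 mice and 1 of 881 in rTg4510 mice, and limma called 0. Here 9.33% (J20) and 11.8% (rTg4510) of the CpGs had an unadjusted p below 0.05, against 9.35% and 10.1% of all CpGs. The J20 pair (chr16:43979404 and 43979417, in Zdhhc23, 337 kb past the 3′ end) was nearly unmethylated, with 2.27% ± 2.12 (SD, n = 32) in WT mice against 3.24% ± 1.92 (SD, n = 31) in TG mice at the first (adjusted p of 0.0364 by the beta regression). The rTg4510 site (chr16:43813718, in Drd3, 171 kb past the end) had 96.3% ± 3.02 (SD, n = 31) in WT mice against 94.1% ± 3.14 (SD, n = 30) in TG mice (adjusted p of 0.023 by the beta regression).

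**Figure D5:**
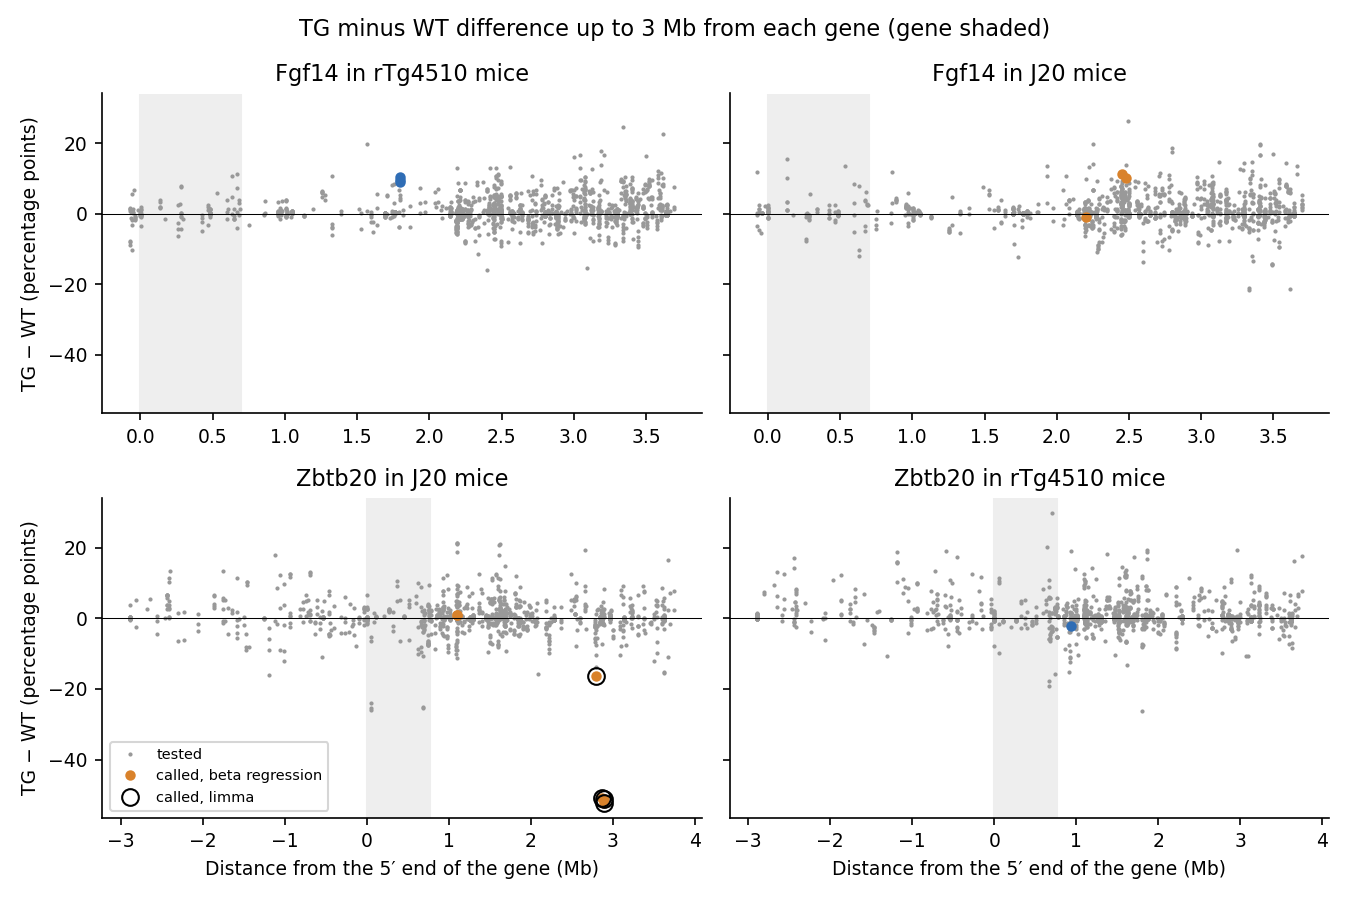
TG minus WT difference (percentage points) of CpGs up to 3 Mb from either gene (shaded) against the distance from its 5′ end in Mb, with CpGs called by the beta regression in colour and those called by limma circled. Within the shaded genes no CpG is called, and the only circled CpGs are 4 J20 sites between 2.02 and 2.12 Mb past the 3′ end of Zbtb20.

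Genes related to Fgf14 and Zbtb20 had few or no called CpGs either, counted with the same 10 kb on either side and read against 0.314% of all CpGs called in rTg4510 mice and 0.18% in J20 mice. In Fgf11, Fgf12 and Fgf13, the other intracellular FGF genes, 0 of 631 CpGs were called by the beta regression in rTg4510 mice and 0 of 648 in J20 mice, with 79 and 55 at an unadjusted p below 0.05. In the sodium channel genes Scn1a, Scn2a, Scn3a and Scn8a, whose products FGF14 binds, 1 of 703 and 0 of 730 were called, with 111 and 75 at an unadjusted p below 0.05. In Zbtb7a, Zbtb16, Zbtb18 and Zbtb45, other repressors of the ZBTB family, 0 of 985 and 0 of 1001 were called, with 143 and 141 at an unadjusted p below 0.05. The share of all CpGs at an unadjusted p below 0.05 was 10.1% and 9.35%, and limma called 0 CpGs in these 3 lists. In the 5 genes at the insertion of the tTA transgene (Vipr2, Wdr60, Esyt2, Ncapg2 and Ptprn2), 25 of 524 CpGs were called in rTg4510 mice (4.77%) by the beta regression and 10 by limma, and 0 of 577 in J20 mice. Whether these lists differ from one another was not tested.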

How the data were processed

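The deposited values are DNAm levels given as a fraction (0 to 1) per CpG and mouse, 1 table per model, and are printed here as percentages. Per the study's methods, the authors trimmed, aligned and called the reads against GRCm38 (mm10), then kept CpGs with a minimum coverage in a share of the mice and smoothed them with BiSeq. The submitters' processing notes name FastQC, Trim Galore 0.4.4, Bismark 0.19.0, Bowtie2 2.3.4.1 and SAMtools 1.8. Smoothing makes neighbouring CpGs alike and can dampen a change at a single CpG. Read counts are not used here, so depth is unknown and precision is given by the spread between mice only. Levels of both strands of a CpG, listed separately in the files, were averaged. At 18.1% (rTg4510) and 20.2% (J20) of values, the level was exactly 0 or 1, and 2.41% and 2.37% of values were missing.

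Mice were grouped by the genotype and age in the labels, and each mouse is 1 sample. The beta regression was run per CpG (probit link, age centred, Wald test for genotype, likelihood ratio test for the interaction) in Python 3.11.15 (numba 0.67.0, scipy 1.17.1, numpy 2.4.6), since the link and the coding of age are not given in the sources used here. It was tested on simulated data that left out CpGs with mean levels near either end of the scale and had no pile-up at exactly 0 or 1. That check therefore does not cover such CpGs. limma 3.58.1 (R 4.3.3) on the fractions gave intervals and an alternative test. Exact values of 0 and 1 were moved to the nearest other value in the table for the beta regression. Permutation tests used 100000 resamples, so that the smallest p they can give is 1e-05, and are two-sided and unadjusted. All adjusted p-values are Benjamini-Hochberg values over all CpGs tested in a model.

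The genes, the related gene lists and the tests were chosen with earlier results of these data known. The sites named are, per gene and model, those of the 3 regions with the smallest genotype p and of the 2 regions with the smallest p for the interaction, age, missing values and the difference between models. The array positions that the study lists as differing with genotype, in Fgf14 (rTg4510) and Zbtb20 (J20), were to be named too. No measured CpG lay within 100 bp of them. The nearest were chr14:124676452, at 113 bp, and chr16:43558636, the Zbtb20 site at 683 kb, at 1001 bp. The study reports a positive genotype effect at its Fgf14 position. At 124676452 the mean of TG rTg4510 mice was higher by 1.07 points (permutation p = 0.457). The 7 Fgf14 CpGs below the unadjusted threshold in these mice had negative coefficients. Some sites with a difference of over 10 points were added after their values were seen. Nothing in the labels says that the letters in the sample titles mark a replicate, shared litter or batch, so the letters were used as a block only in an alternative. Same-letter rTg4510 mice were nevertheless more alike than other pairs (mean correlation 0.031 against −0.00400), and J20 mice less so (0.0143 against −0.00164). In rTg4510 mice this choice changed the count of called CpGs of both genes. The number of columns of other samples in the tables was 0, and array and hippocampus data were not analysed here.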

Additional observations from a re-analysis of the deposited data

Results flagged for a closer look

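Of the 32 groups of mice (1 genotype and age at 1 of the 4 sites named for genotype with a permutation p below 0.05) searched for a mouse far from the rest, 3 held one, and chance flags about 1 in 20 such groups where values are normally distributed, which levels that pile up at 0 or 100% are not. At chr16:43558636 in Zbtb20, 1 WT J20 mouse of 6 months had 70.2% where the other mice of its group had a median of 100% (n = 6 with it). At the same site, 1 WT J20 mouse of 8 months had 55.5% where the others had a median of 97.3%. At chr16:43581915, 1 WT rTg4510 mouse of 6 months had 100% where the other 7 had a median of 0. All 3 mice are WT mice that lie on the side of the TG mean, so leaving any of them out would widen the genotype difference.

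The TG minus WT difference was unlike in the models at 3 Zbtb20 sites by a permutation test of the difference between the differences (rTg4510 minus J20), unadjusted over 36 such tests. Sites 42876084 and 43581915 were named for the smallest p of the same difference by the beta regression, and 42876063 for its genotype p, so this describes them and is not independent support. The difference between the models was 28.5 points at chr16:43581915 (permutation p = 0.00913), from a higher TG level in rTg4510 mice and nearly equal levels in J20 mice. It was −0.709 points at chr16:42876063 (permutation p = 0.0226) and −0.696 points at chr16:42876084 (permutation p = 0.00792), which are neighbours in the smoothed run at the 5′ start and count as 1 observation. None of the 3 passed the adjustment over all CpGs by the beta regression, where their adjusted p-values were 0.241, 0.129 and 0.0999.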

How the results depend on the processing

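The number of called CpGs per gene, model and test stayed at 0 under every alternative run except the letter block: genotype effect at an age of 0 months, no interaction term, logit link, likelihood ratio test, limma on fractions or log2 ratios, squeezed values, CpGs with a value in every mouse, the genes without the 10 kb, a Wald test of the interaction and at least 5 missing values. With the letter of the sample title as a block, 2 Fgf14 and 8 Zbtb20 CpGs were called for genotype in rTg4510 mice and 5 Zbtb20 CpGs for age in J20 mice. Among these genotype calls were 4 of the sites named for genotype, all in rTg4510 mice. Their adjusted p-values by the beta regression with the block were 0.00788 (124677036), 0.0372 (43538002), 0.0208 (43581915) and 0.0293 (42876063). Over all CpGs the block raised the genotype calls from 4893 to 17489 in rTg4510 and from 2852 to 7940 in J20 mice, while limma gave 64 and 4, squeezed values 367 and 9, and the likelihood ratio test in the model with no interaction 601 and 170 (3877 and 2089 with the Wald test in that model). The age calls over all CpGs of J20 mice rose from 4443 to 12735 with the block. The mean correlation of same-letter mice was 0.031 in rTg4510 and 0.0143 in J20 mice, against −0.00400 and −0.00164 for other pairs, and 15 of 197 and 8 of 187 same-letter pairs were above 0.1. The count above 0.1 among other pairs is not given here. As a hint from the data and not from the design, 27 of 60 rTg4510 mice correlated best with a mouse of their own letter. In J20 mice it was 7 of 62, which is close to the share of all pairs with the same letter. Of the pairs, 197 shared a letter and 1430 did not in rTg4510 mice, and 187 and 1549 in J20 mice. What the letter marks is not given in the sources used here. Averaging the 4 within-age differences gave 6 rather than 7 permutation p-values below 0.05 within models, and 4 rather than 3 between models, the latter chosen after seeing the data. Reads per CpG are unknown, so counting error at the many levels of exactly 0 or 100% cannot be given, and CpGs outside the RRBS fragments, the great majority in both genes, had no value.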

Other observations

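Beyond 1 Mb, a cluster of J20 differences on the chromosome of Zbtb20 stood out, and the wider window of 3 Mb was chosen after these values were seen. limma called only 4 of all 1582070 CpGs between TG and WT J20 mice, and all 4 lie on chromosome 16, which holds 2.92% of the CpGs, between 2025 and 2120 kb past the 3′ end of Zbtb20. The beta regression, by contrast, placed 65 of its 2852 J20 calls on chromosome 16 (2.28%). The sites lie in neighbouring genes: Tmprss7, a membrane serine protease gene, Abhd10, a mitochondrial hydrolase gene, and Phldb2, a gene of a cytoskeletal anchoring protein. The stretches are printed on the plus strand of GRCm38, with CpGs that had a value in capitals (chr16:45667554-45667635, chr16:45740087-45740168 and chr16:45762850-45762941).
Tmprss7: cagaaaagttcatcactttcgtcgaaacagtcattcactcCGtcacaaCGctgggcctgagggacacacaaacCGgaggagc
Abhd10: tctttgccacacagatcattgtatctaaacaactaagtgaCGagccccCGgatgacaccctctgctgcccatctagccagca
Phldb2: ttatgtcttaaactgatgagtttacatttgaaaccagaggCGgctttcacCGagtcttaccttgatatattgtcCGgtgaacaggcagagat
At chr16:45740127 in Abhd10, the lowest, median and highest levels were 0, 100% and 100% in WT mice and 0, 40% and 100% in TG mice, with means of 86.9% ± 30.4 (SD, n = 31) and 36.1% ± 29.8 (SD, n = 29). At chr16:45762890 in Phldb2 the means were 95.5% ± 15.6 (SD, n = 27) and 44.3% ± 39.6 (SD, n = 26), and at 45762900 they were 95.0% ± 18 (SD, n = 27) and 42.6% ± 39.3 (SD, n = 26). At chr16:45667594 in Tmprss7 they were 95.9% ± 6.72 (SD, n = 28) and 79.7% ± 13.2 (SD, n = 30). The adjusted p-values by limma were 0.0205, 0.0465, 0.0465 and 0.0465 in that order, and by the beta regression 0.0181, 0.00146, 0.00116 and 0.0453. Of the 4 sites only that in Tmprss7 was measured in rTg4510 mice, where TG and WT mice differed by 0.0723 points. In the stretch from 2 to 2.2 Mb past the end of Zbtb20, 6 of 91 CpGs differed by over 10 points in J20 mice and 3 of 92 in rTg4510 mice, against 3.41% and 4.12% of the CpGs within 3 Mb, and this stretch was chosen after its values were seen. limma on log2 ratios called 3 CpGs in J20 mice, and all 3 are on chromosome 16. What sets these sites apart was not tested.

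Around Fgf14, the nearest called CpGs in rTg4510 mice were 3 at 1095 kb past its 3′ end, in the overlapping genes Pcca and Ggact (chr14:122882619, 122882632 and 122882647), where TG mice were higher by 9.04, 9.72 and 10.4 points by the beta regression (adjusted p-values of 0.0378, 0.0318 and 0.0274). In J20 mice the beta regression called 3 other CpGs within 3 Mb of Fgf14, in Clybl and 2610035F20Rik, the nearest at 1503 kb. limma called 0 of the 6 CpGs, and in J20 mice the 3 CpGs in Pcca and Ggact differed by 0.0498, 0.236 and 0.1899 points. Of the 64 CpGs that limma called in rTg4510 mice, 0 were on chromosome 14 or 16, 16 on chromosome 12, between 114 and 120 Mb, and 22 on chromosome 2. These chromosomes hold 3.49%, 2.94%, 4.05% and 7.70% of the CpGs, in that order. The beta regression placed 149 of its 4893 rTg4510 calls on chromosome 14 (3.05%) and 144 on chromosome 16 (2.94%).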
